A study of Mus musculus with 6 samples.

Results

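Osteoclast effector genes are the genes through which the bone-resorbing osteoclast forms, attaches and removes mineral and matrix. In this series they were taken as all probes whose gene symbol was Acp5, Ctsk, Oscar, Calcr, Nfatc1, Atp6v0d2, Tm7sf4, Car2, Clcn7 or Ostm1, which gave 10 of the 31508 gene symbols on the array and 18 of its 45281 probes. Tm7sf4 is the older name of Dcstamp. The samples were tubes of cortical bone from the femur and tibia of C57BL6 mice, listed as 3 months old in the sample labels and as slightly younger at the lower end in the study's methods. The tubes were flushed of marrow, digested repeatedly with collagenase and trypsin, and cultured overnight in serum, a procedure meant to leave osteocytes within their own matrix. They were then kept for 24 h in fresh medium alone (control) or with 250 nM PTH 1-34, the active amino-terminal fragment of parathyroid hormone. Each of the 3 control and 3 PTH arrays carried RNA from one preparation of about 10 bones, and the study's methods give 4 to 5 mice per experiment. Whether control and PTH preparations shared mice is not stated. No label says that preparations came from separate cultures or sets of mice, so p-values measure only the spread between these arrays, part of which may be technical.

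Osteoclasts are large multinucleated cells of the monocyte lineage that arise when precursors meet M-CSF and RANKL, the ligand made by osteocytes and other stromal cells and blocked by the decoy receptor osteoprotegerin. RANKL, together with costimulation through immunoreceptor-associated proteins such as OSCAR, induces the transcription factor NFATc1, which turns on the genes of cell fusion and resorption. The mature cell seals off a patch of bone, acidifies it through carbonic anhydrase, a vacuolar proton pump and a chloride channel, and digests the collagen with secreted enzymes. Parathyroid hormone is a classical stimulus of osteoclast formation, and its receptor lies on osteoblasts and osteocytes.

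Of the 10 genes, 8 had a probe above background and could be tested. Car2, Oscar and Acp5 were higher in PTH-treated bone tubes, by 2.58-fold, 2.07-fold and 1.79-fold. Tm7sf4 stood 2.12-fold above control but did not pass the test, and Clcn7, Ctsk and Ostm1 did not pass either. The 4 measurable probes of Nfatc1 lay on both sides of no change and none passed. No member probe was called lower. Calcr and Atp6v0d2 had no probe above background on any array.

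A probe was taken as above background on an array when its detection p-value, the share of negative control beads at least as bright, was under 0.05, and it was tested when this held on at least 3 of the 6 arrays. Levels are given as normalized log2 signal, and changes as log2 fold changes of PTH minus control with their standard error (SE). Levels of one probe are compared only across arrays, because probes differ in brightness for reasons other than the amount of RNA. A change was called at an adjusted p under 0.05 (limma, Benjamini-Hochberg over all 16214 probes tested). Of these probes 261, or 1.61%, were called, and 100, or 0.617%, were called higher with PTH. Of the 11 member probes tested, 3 were called, all higher. For 7 of the 11 all PTH values exceeded all control values, against 10.3% of all probes tested, and for 1 all PTH values were the lower ones, against 10.5% of all probes. All 11 were above background on all 6 arrays, so none entered the test through one group alone, and the other 7 member probes were above background on no array. The median log2 fold change was 0.39 over the 11 member probes and 0.00 over all probes tested. In RNA from whole bone tubes, a change in the number of cells of one type and a change in the RNA of each cell cannot be told apart.

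Car2 encodes carbonic anhydrase II, which supplies the protons that the osteoclast secretes. Its measurable probe (ILMN_2606746) gave 5.40, 5.74 and 5.65 in the 3 controls and 7.12, 6.75 and 7.01 in the 3 PTH samples. All 3 PTH arrays were higher than all 3 controls, and the gap between the groups was larger than the spread inside either. The mean rose from 5.60 ± 0.18 to 6.96 ± 0.19 (SD, n = 3 each), which is a change of 1.37 in log2 signal (SE 0.15, 95% interval 1.01 to 1.72, adjusted p = 0.00774, limma). Car2 was the one member called when any single array was left out (adjusted p from 0.0202 to 0.0453). It was not called with the replicate number as a block (adjusted p = 0.0568, limma). The probe was dim in controls, with deposited signals of 133, 159 and 140 against 201, 198 and 281 with PTH, and the size of its change followed the background correction, being 0.62 on the log2 scale with quantile normalization alone and 1.72 with background subtraction. The other Car2 probe (ILMN_2603504) was below background on all arrays, with signals from 88.0 to 112.

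Carbonic anhydrase II is also abundant in red cells. The hemoglobin genes Hba-a1 and Hbb-b1 moved the other way, with log2 fold changes of -1.98 and -1.89 (limma adjusted p = 0.000747 and 0.000793). Of the 8 red cell markers on the array these were the only 2 that could be tested. Their summed normalized signal on a linear scale ran from 8521 to 9978 in controls and from 2329 to 2606 with PTH, while Epb4.2 and Car1, the red cell carbonic anhydrase I, were above background on no array. What part red cells had in the Car2 signal was not tested.

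Oscar and Acp5 both belong to the program that RANKL starts. Oscar encodes the osteoclast-associated receptor, a collagen-binding receptor that signals through the adaptor FcRγ, and Acp5 encodes tartrate-resistant acid phosphatase (TRAP), the enzyme by which osteoclasts are stained. The sequences just upstream of their annotated starts are shown because these genes were called higher and NFATc1, the factor known to act on such promoters, is itself a member. They are from RefSeq (GRCm38.p6), 250 bases each, read 5′ to 3′ on the gene's strand, with GGAAA and its reverse complement TTTCC, the core letters of an NFAT site, in capitals. The Oscar window is chr7:3616158-3616407 on the minus strand. Acp5 has 3 annotated starts, and the window of the most downstream one is chr9:22130599-22130848 on the minus strand.
Oscar: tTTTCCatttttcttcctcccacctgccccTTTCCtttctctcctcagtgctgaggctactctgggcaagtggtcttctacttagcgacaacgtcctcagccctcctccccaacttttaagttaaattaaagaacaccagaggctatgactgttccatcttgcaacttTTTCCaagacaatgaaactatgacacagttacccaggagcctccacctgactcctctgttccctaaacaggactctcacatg
Acp5: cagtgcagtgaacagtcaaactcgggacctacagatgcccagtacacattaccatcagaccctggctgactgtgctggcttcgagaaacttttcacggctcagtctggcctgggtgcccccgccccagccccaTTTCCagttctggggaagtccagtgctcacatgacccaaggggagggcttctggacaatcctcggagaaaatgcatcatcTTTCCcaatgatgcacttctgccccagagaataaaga

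The Oscar window held 3 matches to the NFAT core. The Acp5 window shown held 2, the most of its 3 windows, and the others held 1 each. The same letters were present in 6 of the 10 windows found for 6 member genes, among them all 3 of Acp5. Of all 32851 windows of this length, 55.6% held them. Windows for Car2, Tm7sf4, Atp6v0d2 and Nfatc1 were not used here. On either strand, the cAMP response element TGACGTCA was in none of the 10 member windows and in 1.55% of all windows, and its short form TGACG, which the whole element contains, was in 4 of 10 against 17.8%. The AP-1 site TGANTCA was in none against 6.75%, the PU.1 core GAGGAA, which overlaps the NFAT core where an A follows, was in 2 against 23.3%, the MITF E-box CATGTG in 3 against 12.3%, and TATAAA in none against 12.4%. The 4 windows with TGACG were of Calcr, Clcn7 and Ostm1, which were not called, and no Acp5 or Oscar window held it. A match is a description of the letters and not a site in use.

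Oscar gave 6.72, 6.26 and 6.65 in the controls and 7.38, 7.77 and 7.64 after PTH (ILMN_1215466). The lowest PTH array was above the highest control. The mean rose from 6.55 ± 0.25 to 7.60 ± 0.20 (SD, n = 3 each), or by 1.05 in log2 signal (SE 0.17, 95% interval 0.65 to 1.45, adjusted p = 0.0297, limma). The call was lost when any 1 of the 6 arrays was left out (adjusted p from 0.0531 to 0.106), with the change then between 0.91 and 1.16. It was also lost with no detection filter (adjusted p = 0.0534), after background subtraction (0.0986) and with the replicate number as a block (0.105). A term for the arrays numbered 3 ended it as well (0.0550). The change was 0.61 with quantile normalization alone, which kept the call.

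Acp5 gave 6.84, 7.11 and 7.31 in controls and 7.91, 7.91 and 7.95 with PTH (ILMN_2735660). The 3 PTH arrays were nearly equal, and the spread lay among the controls. The mean rose from 7.09 ± 0.23 to 7.92 ± 0.02 (SD, n = 3 each), or by 0.84 in log2 signal (SE 0.15, 95% interval 0.50 to 1.18, adjusted p = 0.0372, limma). As for Oscar, leaving out any 1 array ended the call (adjusted p from 0.0563 to 0.132). So did median scaling (0.0828), no detection filter (0.0602), background subtraction (0.102) and the replicate number as a block (0.0852), with the direction kept. Median scaling gave each tested member probe the same SE, 0.285. Calls under it therefore followed the size of the change and not the probe's own spread. The change was 0.55 with quantile normalization alone, which kept the call.

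**Figure D1:**
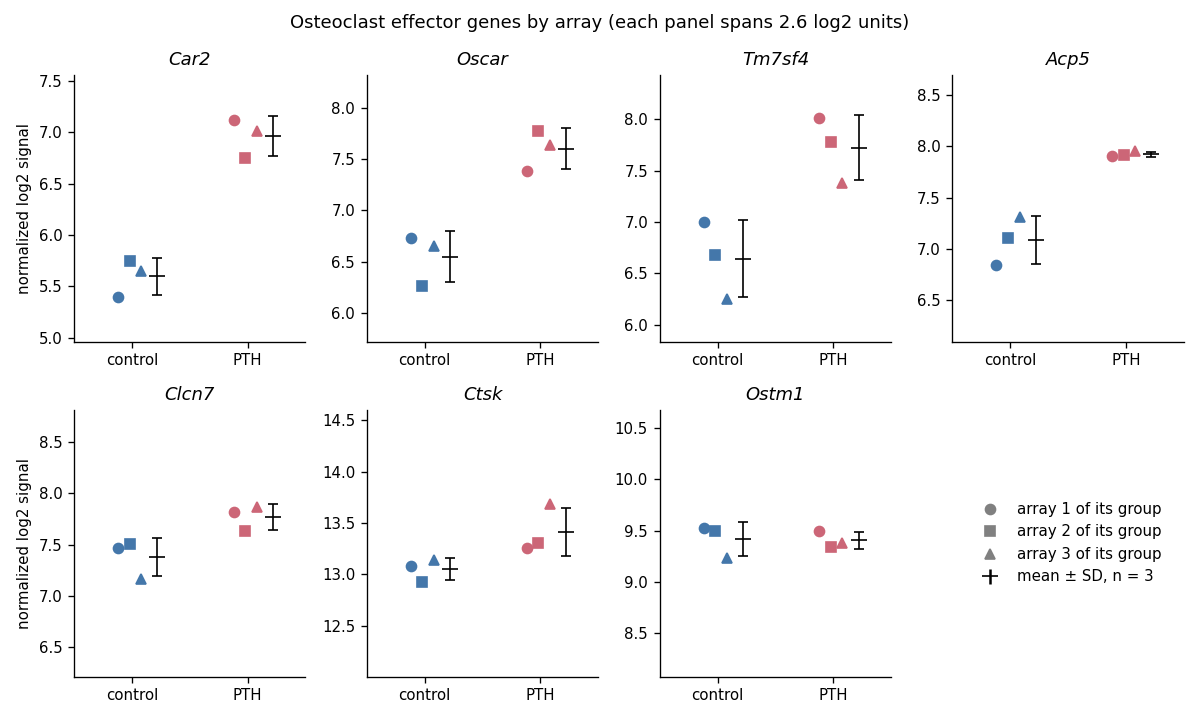
Normalized log2 signal (vertical axis) of the 7 member genes with 1 measurable probe, on each of 3 control and 3 PTH arrays, with the mean and SD beside them. The groups do not overlap for Car2, Oscar, Tm7sf4, Acp5, Clcn7 and Ctsk, and overlap for Ostm1.

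Tm7sf4 encodes DC-STAMP, the membrane protein needed for osteoclast precursors to fuse. It gave 7.00, 6.68 and 6.25 in controls and 8.01, 7.78 and 7.38 with PTH (ILMN_1231166). All PTH arrays were above all controls, but each group spread over a wide range, and arrays 1, 2 and 3 came in the same order in both. The means were 6.64 ± 0.37 and 7.72 ± 0.32 (SD, n = 3 each), a difference of 1.08 in log2 signal (SE 0.23, 95% interval 0.55 to 1.62), with a limma adjusted p of 0.0742 that did not pass. It was above the threshold whichever array was left out (adjusted p from 0.0912 to 0.190) and under it in 6 of 9 other settings. Among these were a term for the arrays numbered 3 (adjusted p = 0.0283) and median scaling (adjusted p = 0.00571). The SE under median scaling, 0.285, was not this probe's own, as each tested member probe had it. The call of Tm7sf4 therefore depended on the processing, while its log2 fold change was between 0.65 and 1.21 in those 9 settings.

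Ctsk, Clcn7 and Ostm1 carry the digestion and acidification of the resorption pit. Ctsk encodes cathepsin K, the collagen-degrading protease of the osteoclast, Clcn7 the lysosomal chloride/proton exchanger that balances the proton pump, and Ostm1 the subunit that exchanger needs for its stability. Ctsk gave 13.08, 12.93 and 13.14 in controls and 13.25, 13.31 and 13.68 with PTH, a difference of 0.36 on the log2 scale (SE 0.15, limma adjusted p = 0.328) that was 0.23 without PTH array 3. Clcn7 gave 7.46, 7.51 and 7.16 in controls and 7.82, 7.63 and 7.87 with PTH, a difference of 0.39 (SE 0.14, limma adjusted p = 0.259). For both genes each PTH array was above each control, by less than for the called members. Ostm1 gave 9.53, 9.50 and 9.23 in controls and 9.49, 9.34 and 9.38 with PTH, and the groups overlapped. Its difference of -0.01 on the log2 scale (SE 0.13, 95% interval -0.32 to 0.30, limma adjusted p = 0.977) changed sign under median scaling, to 0.16, and under cyclic loess, to 0.0069.

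**Figure D2:**
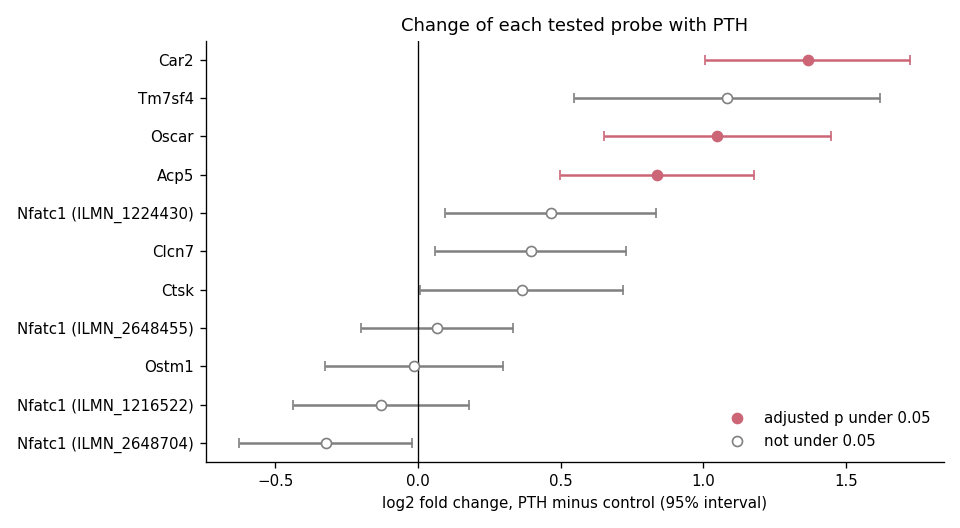
Log2 fold change, PTH minus control, of the 11 tested member probes (horizontal axis) with its 95% interval before adjustment. The 3 filled points are Car2, Oscar and Acp5, called at an adjusted p under 0.05, and the 4 Nfatc1 probes range from -0.32 to 0.46.

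Nfatc1, the master transcription factor of osteoclast formation, was covered by 6 probes, more than any other member. The changes of its 4 measurable probes lay on both sides of no change, and none was called. Probe ILMN_1224430 gave 8.53, 8.64 and 8.21 in controls and 8.97, 8.74 and 9.06 with PTH, with all PTH arrays above all controls (log2 fold change 0.46, SE 0.16, limma adjusted p = 0.229). Probe ILMN_2648704 gave 7.50, 7.69 and 7.42 in controls and 7.21, 7.31 and 7.11 with PTH, with all PTH arrays below all controls (log2 fold change -0.32, SE 0.13, limma adjusted p = 0.308). On the remaining pair of measurable probes the groups overlapped. ILMN_2648455 differed by 0.07 (SE 0.12, limma adjusted p = 0.848), and ILMN_1216522, the brightest, by -0.13 (SE 0.13, limma adjusted p = 0.719), which turned to 0.012 under median scaling. The changes of ILMN_1224430 and ILMN_2648704 were 0.79 apart on the log2 scale. This pair was picked as the extremes after their values were seen. An exact two-sided permutation test of the gap over the arrays gave p = 0.1, the smallest that 3 against 3 arrays allow. That outcome was fixed by the choice, because PTH arrays lay wholly above controls on 1 probe and wholly below on the other. The test therefore says nothing further about the probes. Which transcripts each probe reads was not analysed here. Probes ILMN_2647734 and ILMN_2647739 were below background on all arrays.

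**Figure D3:**
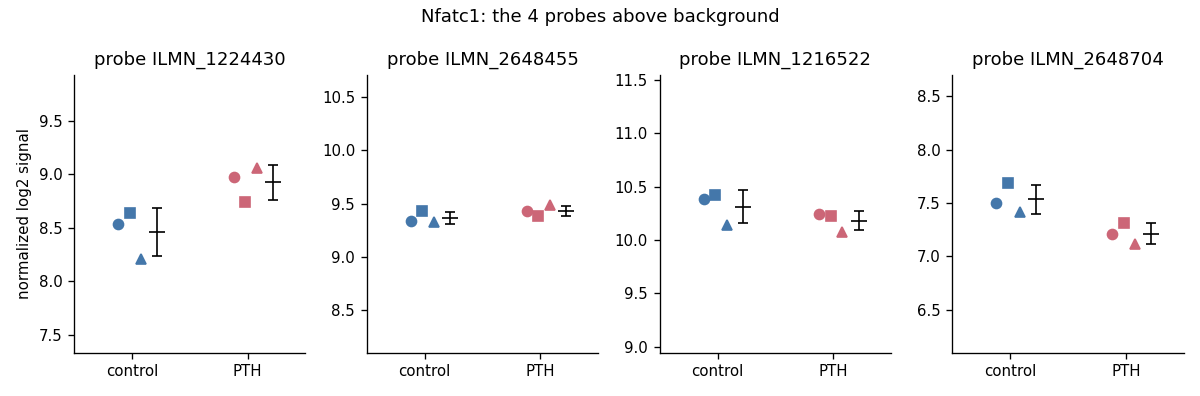
Normalized log2 signal (vertical axis) of the 4 Nfatc1 probes above background, on each of 3 control and 3 PTH arrays, with the mean and SD beside them. PTH arrays lie above controls for ILMN_1224430, below for ILMN_2648704, and among them for the other two.

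Calcr, the calcitonin receptor of mature osteoclasts, and Atp6v0d2, a proton pump subunit also needed for fusion, stayed at background. The 3 Calcr probes had deposited signals of 97.8 to 124 and the Atp6v0d2 probe (ILMN_2610885) of 103 to 123, against array medians of 111 to 129. None had a detection p-value under 0.05 on any array. No fold is given for these genes, and a change below the level the array can measure was not detectable.

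The other genes of the osteoclast pathway were taken from 3 lists that hold no member, each gene read by its brightest tested probe. Of the 63 listed genes on the array, 56 were tested, and 1 was called higher, 1 lower and 54 not at all. Their median log2 fold change was 0.11, and 38 of the 56 were above 0. Median scaling put the median of all probes at 0.11 rather than 0.00, and relative to that shift the 3 list medians of 0.27 to 0.29 found under it were higher by less than 0.2.

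Among 10 tested receptors and adaptors, 0 were called higher and 1 lower at a limma adjusted p under 0.05, with a median of 0.15. The call was Fcer1g, the gene of FcRγ, through which OSCAR signals. It gave 12.28, 12.17 and 12.09 in controls and 11.03, 11.34 and 11.05 with PTH, a difference of -1.04 in log2 signal (SE 0.14, adjusted p = 0.0135, limma), so that the receptor gene and the adaptor gene moved in opposite directions. Fcer1g is also used by neutrophils, macrophages and mast cells. Its call was lost under median scaling (adjusted p = 0.140) and in 5 of 6 fits with 1 array left out (adjusted p from 0.0315 to 0.0730 over the 6). The largest positive difference in this list was that of Mst1r, the RON receptor, at 1.07 (SE 0.23, limma adjusted p = 0.0742). Tnfrsf11a, which encodes the RANKL receptor RANK and was chosen for mention after its value was seen, differed by 0.41 (limma adjusted p = 0.273), and Tyrobp, the gene of the other adaptor, DAP12, by 0.19.

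Of 20 tested genes of osteoclast signaling and transcription, 0 were called in either direction by limma, with a median of 0.10. The extremes were Fos, an AP-1 subunit required for osteoclast formation, at 0.52 (SE 0.11, limma adjusted p = 0.0788), and Ppp3ca, the calcineurin subunit that activates NFAT proteins, at -0.41 (SE 0.13, limma adjusted p = 0.203). With quantile normalization alone both genes passed, in those directions.

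Of 26 tested genes of fusion, adhesion and resorption, 1 was called higher and 0 lower, with a median of 0.13. The call was Mmp9, a gelatinase that osteoclasts secrete and that neutrophils store. It gave 11.74, 11.88 and 11.96 in controls and 12.47, 12.56 and 12.75 with PTH, a difference of 0.73 in log2 signal (SE 0.13, 1.66-fold, adjusted p = 0.0433, limma). Its call was lost under median scaling (adjusted p = 0.134) and in all 6 fits with 1 array left out (adjusted p from 0.0873 to 0.158). Ctsl, another lysosomal cathepsin, had the lowest value, -0.46 (SE 0.27, limma adjusted p = 0.504). The 12 tested genes of the vacuolar proton pump in this list ranged from -0.29 to 0.40 with a median of 0.14, 11 of them above 0, and none was called. The highest was Tcirg1, the pump subunit of the osteoclast's ruffled border, at 0.40 (SE 0.12, limma adjusted p = 0.185).

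The cytokines that bone cells use to control osteoclasts were read from the same arrays. Tnfsf11, the gene of RANKL, gave 8.21, 8.02 and 8.93 in controls and 9.91, 9.65 and 10.09 with PTH, a difference of 1.49 in log2 signal (SE 0.25, adjusted p = 0.0298, limma). Leaving out 1 array gave adjusted p-values from 0.0150 to 0.114, with 1 of the 6 under 0.05. Tnfrsf11b, the gene of osteoprotegerin, gave 11.09, 11.33 and 11.14 in controls and 9.71, 9.65 and 9.41 with PTH, a difference of -1.60 in log2 signal (SE 0.14, adjusted p = 0.00194, limma). The ligand was higher on every PTH array and its decoy lower. Csf1, which encodes M-CSF, differed by -0.10 (SE 0.23, limma adjusted p = 0.895).

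Markers of other cells that bone tubes can hold were read in the same way, and their part in the osteoclast gene results was not tested. None of 11 tested macrophage and monocyte markers was called at an adjusted p under 0.05 (limma), with a median of -0.10. Under median scaling it became 0.05, still below the median of all probes under that setting, 0.11. Their summed normalized signal was 42790 to 44336 in controls and 40940 to 45526 with PTH, of which the lysozyme genes Lyz and Lyzs, also abundant in neutrophils, made up 82.6% to 85.7%. Without them the sum was lower on the PTH arrays, at 6209 to 6504 against 7354 to 7706 in controls. For 4 of the 11 genes all PTH values were below all control values, against 10.5% of all probes. These were Mrc1, Emr1 at -0.27, and the complement genes C1qa at -0.74 (limma adjusted p = 0.169) and C1qb at -0.72 (limma adjusted p = 0.0576), and all but Mrc1 were chosen for mention after their values were seen. The list ran from Mrc1, the mannose receptor, at -0.80 (limma adjusted p = 0.132) to Cd14 at 0.39 (limma adjusted p = 0.184), and Cd163 was above background on no array.

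Of 8 tested neutrophil markers, 5 were called lower with PTH, namely Lcn2, Ltf, Mpo, Ngp and Prtn3, and their log2 fold changes lay between -0.91 and -0.72. Camp, S100a8 and S100a9 missed the threshold, with adjusted p-values from limma of 0.317, 0.192 and 0.144. The summed signal of the list was 53685 to 54598 in controls and 34547 to 39135 with PTH, and Ela2 and Mmp8 were above background on no array. None of these 5 calls held under median scaling, where the changes were -0.78 to -0.55, and with 1 array left out only that of Mpo held, in 1 of 6 fits. B lymphocyte markers were near background. Of 6 on the array, 3 were tested and none called by limma, with summed signals of 191 to 233 in controls and 172 to 234 with PTH, and Cd79a and Ms4a1 were above background on no array. Their extremes were Vpreb1 at 0.60 and Vpreb3 at -0.34.

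Markers of the labelled tissue were present, since Dmp1, Mepe, Phex and Gp38 were above background on all 6 arrays and Sost on the 3 control arrays and 1 PTH array, while Fgf23 was on none. Of these 5 osteocyte genes, Mepe was called lower (log2 fold change -1.02, limma adjusted p = 0.0128) and the others were not called. Dmp1 differed by -1.21, Sost by -1.21 and Phex by -0.88 (limma adjusted p = 0.0557, 0.150 and 0.0761). Gp38 differed by 0.70 (limma adjusted p = 0.0560). The call of Mepe was lost under median scaling (adjusted p = 0.167) and in 5 of 6 fits with 1 array left out (adjusted p from 0.0352 to 0.0657 over the 6). Of 6 tested osteoblast genes, 2 were called lower, Ibsp by -2.01 and Sp7 by -0.81 on the log2 scale, and Runx2 was above background on no array. For each of the 6 all PTH values were below all control values, against 10.5% of all probes. The median log2 fold change of the list was -0.53. Its summed signal was 27009 to 27619 in controls and 15457 to 16377 with PTH. The call of Ibsp held in all fits tried, and that of Sp7 was lost under median scaling (adjusted p = 0.534) and in all 6 fits with 1 array left out (adjusted p from 0.0611 to 0.109).

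**Figure D4:**
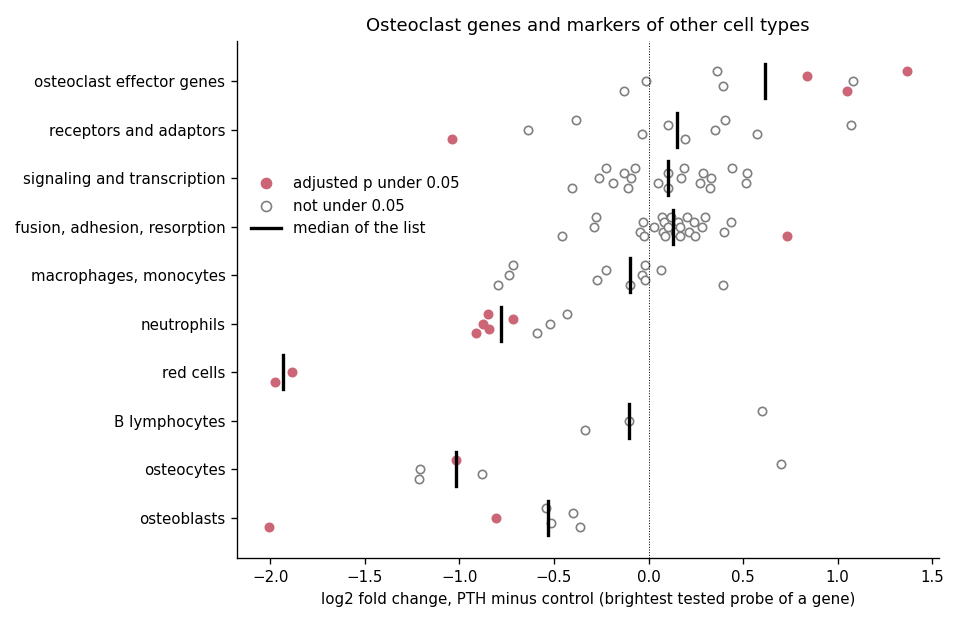
Log2 fold change, PTH minus control (horizontal axis), of each tested gene by its brightest probe, for the osteoclast effector genes, 3 other osteoclast lists and 6 lists of other cell types, with each list's median as a bar. Filled points are called at an adjusted p under 0.05, namely 3 of 8 effector genes, 2 of 56 other osteoclast genes, and no macrophage marker.

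The settings differed in which members passed, as the plot of changes under each setting shows. Car2, Oscar, Acp5 and Tm7sf4 were higher with PTH in each of the fits tried, including the 6 with 1 array left out. With quantile normalization alone, the 5 member probes called were those of Acp5, Car2, Oscar, Tm7sf4 and Nfatc1 (ILMN_1224430, adjusted p = 0.0481, limma), and with median scaling the 3 called were those of Car2, Oscar and Tm7sf4.

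**Figure D5:**
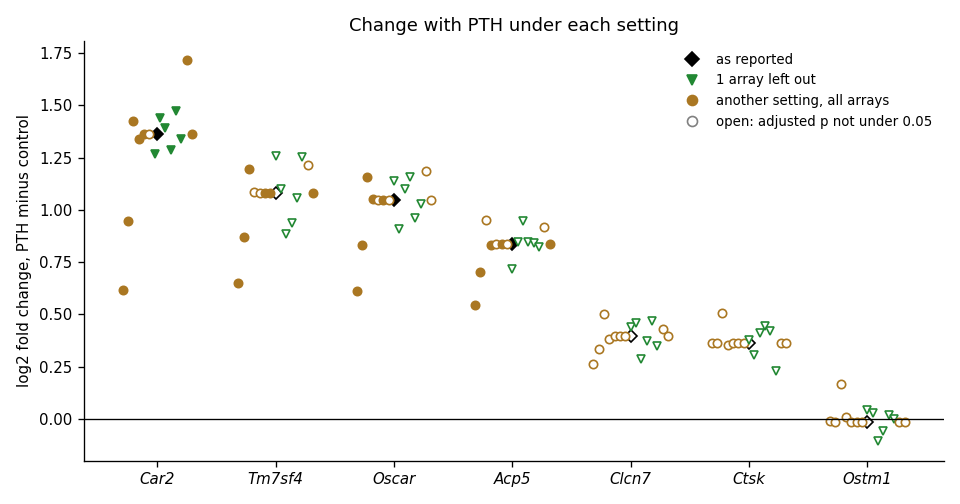
Log2 fold change, PTH minus control (vertical axis), of 7 member genes as reported, with each array left out, and under other settings that used all arrays. Filled symbols passed an adjusted p of 0.05. Car2, Tm7sf4, Oscar and Acp5 are above 0 under all settings shown, and Ostm1 lies on both sides of 0.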

How the data were processed

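Cortical bone RNA was measured on 6 Illumina mouse bead arrays. The authors deposited, per probe and array, a linear signal intensity exported from GenomeStudio without normalization or background subtraction, and beside it a detection p-value that sets it against the control beads. Each column of array values was read. Probes above background numbered 15504 to 17374 per array (34.2% to 38.4% of 45281), and PTH array 3 had the highest upper quartile of signal (183, others 141 to 166). No pair of arrays was identical. The number of arrays limits the precision.

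Groups came from the sample labels. Signals went through neqc (limma 3.58.1, R 4.3.3), which combines a normexp background correction based on detection p-values, an offset of 16, quantile normalization and log2 conversion. Probes with detection p under 0.05 on at least 3 arrays were tested with lmFit and eBayes, and the p-values of all 16214 were adjusted by the Benjamini-Hochberg method. The procedure was tested on simulated data. The members and gene lists were chosen with earlier results of these data known. Named genes are all members, every called gene of a list, otherwise the highest and lowest of each list, and Tnfsf11 and Tnfrsf11b. Tnfrsf11a, Tyrobp, Tcirg1, Csf1 and several macrophage, neutrophil and osteocyte markers were added after their values were seen. Current symbols and upstream windows came from RefSeq tables (GRCm38.p6), in which 9 members matched by symbol and Tm7sf4 by an older name. Probe coordinates and the genome build of the array were not used. Alternatives were quantile normalization alone, an offset of 50, median scaling, cyclic loess, other detection filters and the mean of a gene's probes. A replicate block, arrays left out, other thresholds and Student's t-test were also tried. The study's methods name that t-test for comparing a pair of groups in general, and used a GenomeStudio differential expression score for the arrays. Background subtraction, a term for the arrays numbered 3, and the block and left-out arrays for the gene lists were added after the data were seen.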

Additional observations from a re-analysis of the deposited data

How the results depend on the processing

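Of 172 recomputed changes of member probes over 16 alternatives, 137 kept direction and side of the threshold, 21 lost the call, 7 gained it and 7 changed sign. The sign changes were those of Nfatc1 probe ILMN_1216522 (0.012 under median scaling, 0.019 as the mean of the gene's probes) and Ostm1 (0.16 under median scaling, 0.0069 under cyclic loess, and -0.11 to 0.041 with 1 array left out, above 0 without control replicate 1, control replicate 2 or PTH replicate 2). The count of member probes called, 3 as reported, was 5 with quantile normalization alone, 1 with no detection filter, 1 with background subtraction, 8 at an unadjusted p under 0.05, 7 by the methods' t-test at its threshold and 0 after Benjamini-Hochberg adjustment, and 1 (Car2) whichever array was left out. Of all probes, 261 were called as reported, 723 with quantile normalization alone, 502 with an offset of 50 and 138 with median scaling. The count was 198 with no detection filter, 422 with detection p under 0.01 on all arrays and 115 with background subtraction. It was 71 to 108 with 1 array left out, and 2257 and 117 by Student's t-test before and after adjustment. At an unadjusted limma p under 0.05 the count over all probes was not taken. The 8 member probes at that threshold therefore have no background share beside them. Median scaling raised the share of higher calls from 38.3% to 55.8%. Under it each tested member probe had the same SE, 0.285, so member calls followed the size of the change alone. The medians of the receptor, signaling and resorption lists were 0.29, 0.27 and 0.29 under median scaling. Of the other osteoclast genes, 2 were called as reported, 9 with quantile normalization alone, 1 (Mst1r) with median scaling, and 0 to 1 with 1 array left out. With the replicate number as a block, 1 member probe (Tm7sf4, adjusted p = 0.0446), 0 other osteoclast genes and 64 of all probes were called. Car2, Acp5 and Oscar then had adjusted p-values of 0.0568, 0.0852 and 0.105. No label says that same-numbered arrays share mice or a slide, and the numbers were not taken to pair them. Deviations of same-numbered arrays correlated at 0.07, 0.06 and 0.27, and 2 of 6 arrays, those numbered 3, matched their own number best. The probes above background rose with the number, from 15758 to 16451 and 17369 in controls and from 15504 to 16352 and 17374 with PTH. Whether same-numbered arrays share a batch was not tested. Car2 was not tested with detection p under 0.01 on all arrays, because control array 1 had 0.0192. A slide block was not run, because no slide is named. The causes of these shifts were not tested. Signals near background limit Car2, Calcr and Atp6v0d2.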
